A study of Mus musculus with 8 samples.

Results

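Foregut endoderm and epithelial transcripts were measured in dissected posterior second heart field (pSHF), a mesenchyme dorsal to the heart tube that adds cells to the atrial septum and that lies against the foregut. The genes are Cdh1, Nkx2-1, Sox2, Hhex, Krt8, Krt18, Cldn6, Cldn7, Spint1 and Pdx1, 10 of 27827 gene names on the array, and they were chosen by name. All non-control spots that carry one of these names were used, which gave 13 probes. The embryos were mouse embryos at embryonic day 9.5 on a mixed background, from females given gonadotropins to obtain large litters. Of 8 RNA pools, 4 carried a mutation in 1 Tbx5 allele (Tbx5-/+) and 4 came from wild-type embryos, with no other allele or agent named, and both genotypes carry the embryo numbers 1, 5, 6 and 7. The labels give neither the number of embryos in a pool nor what a shared number stands for. Each pool was hybridized to 1 one-colour array. Arrays of numbers 1 and 5 lay on 1 slide and those of numbers 6 and 7 on another, each slide with its own scan. The study describes its posterior dissection, for Shh mutant and wild-type embryos, as including the attached foregut. Per the labels of the present pools the neural tube was removed by a cut through the foregut. Each pool therefore contains mesenchyme together with an unmeasured amount of gut epithelium. In such a bulk sample, fewer epithelial cells and less RNA per epithelial cell cannot be told apart.

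The foregut is an epithelial tube of endoderm wrapped in splanchnic mesenchyme. Its cells are held together by E-cadherin (Cdh1) at adherens junctions and by claudins (Cldn6, Cldn7) at tight junctions, and their cytoskeleton is built from the paired keratins 8 and 18. Along the tube, transcription factors mark regions: Sox2 the anterior and dorsal foregut, Nkx2-1 the ventral wall that gives rise to lung and thyroid, Hhex the ventral foregut of liver and thyroid, and Pdx1 the future pancreas and duodenum. Spint1 encodes a membrane-bound inhibitor of the epithelial serine proteases matriptase and hepsin. None of these genes is a marker of the pSHF mesenchyme itself, and several are not particular to endoderm: Sox2 is also a gene of the neural tube, and keratins 8 and 18 are made by mesothelium and early heart muscle too.

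No array held a saturated spot, and the scanner software marked 45.0% to 52.8% of the spots as well above background in Tbx5-/+ against 50.9% to 63.6% in wild-type. Values are log2 signals after variance stabilization (VSN), and differences are Tbx5-/+ minus wild-type. Testing was limited to the 20031 of 41174 probes that reached well above background in every pool of 1 or both genotypes. Their median difference was -0.19, and it moved to 0.10 with scaling to the 75th percentile and to 0.13 with centring on array medians. Tbx5 itself read 9.33, 10.05, 9.48 and 8.94 in the Tbx5-/+ pools, in the order of their numbers, and 10.74 to 11.88 in wild-type. By this probe all mutant arrays lay below all wild-type arrays (difference -2.12 ± 0.32, SE), whereas a second, dimmer Tbx5 probe differed by -0.15 ± 0.32 (limma adjusted p = 0.788). The labels do not say where in the gene the mutation lies. Of 10 pSHF markers tested, Tbx5, Osr1, Foxf1a, Gata4 and Hoxb1 were lower and none higher in Tbx5-/+ at an unadjusted p under 0.05, where 15.5% of all genes were lower and 4.07% higher. No marker passed adjustment. With the embryo number as a block these 5 did (limma adjusted p = 0.0334 to 0.0346), as did 11.2% of all tested probes. Osr1, Foxf1a and Gata4 were well above background in 3, 3 and 2 of 4 mutant pools and entered the test through the wild-type pools, so their direction was favoured by the filter.

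Of the 13 probes, 11 probes of 9 genes were tested. Pdx1 was not well above background on any of the 8 arrays, so the pancreatic marker allowed no comparison (probe at chr5:148086570-148086629, mm9). A second Hhex probe (chr19:37511721-37511780, mm9) was well above background in 1 mutant pool and 2 wild-type pools and was not tested. The endoderm label was therefore carried by 3 of its 4 regional transcription factors and by all 6 epithelial genes. Cdh1 and Nkx2-1 are each printed in 10 spots per array. Over the 9 or 10 usable spots the standard deviation within an array was 0.04 to 0.15 for Cdh1 and 0.02 to 0.47 for Nkx2-1. This is the error of spotting within an array and does not measure the spread between pools.

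The upstream sequences of the members can be set beside their expression. RefSeq promoters (GRCm38.p6) were at hand for 9 of the 10 members, all but Cdh1. In the 250 bases before the start site, the E2-box CAGGTG (searched on both strands, so also as CACCTG), the core that Snail and Zeb repressors recognize in epithelial genes, was found for Nkx2-1, Krt8, Krt18, Cldn6, Pdx1 and 1 of 2 start sites of Cldn7. It was present in 17.2% of 32851 promoter windows of the same length. Neither the grainyhead-like motif AACNGGTT, which 1.79% of the windows hold, nor the T-box motif AGGTGTGA, which 1.12% hold, occurred in any member window. The windows of both claudins, Krt8 and Nkx2-1 are shown because the results below turn on these genes; capitals mark the E2-boxes. They lie at chr17:23679115-23679364, plus strand, chr11:69965171-69965420, plus strand, chr15:102004343-102004592, minus strand and chr12:56536909-56537158, minus strand, each written 5′ to 3′ toward the start site.
Cldn6: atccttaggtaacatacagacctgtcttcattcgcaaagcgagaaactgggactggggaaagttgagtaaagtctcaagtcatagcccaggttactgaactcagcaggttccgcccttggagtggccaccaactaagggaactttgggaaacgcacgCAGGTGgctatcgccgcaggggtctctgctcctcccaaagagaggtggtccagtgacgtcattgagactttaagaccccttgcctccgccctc
Cldn7: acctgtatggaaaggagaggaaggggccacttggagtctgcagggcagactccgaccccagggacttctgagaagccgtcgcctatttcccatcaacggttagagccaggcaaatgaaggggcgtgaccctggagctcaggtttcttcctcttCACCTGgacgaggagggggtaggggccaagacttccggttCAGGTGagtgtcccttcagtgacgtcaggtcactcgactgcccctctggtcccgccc
Krt8: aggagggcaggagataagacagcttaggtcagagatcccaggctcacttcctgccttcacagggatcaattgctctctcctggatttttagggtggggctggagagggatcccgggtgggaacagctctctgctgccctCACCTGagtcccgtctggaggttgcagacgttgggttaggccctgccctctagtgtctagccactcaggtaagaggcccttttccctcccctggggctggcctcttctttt
Nkx2-1: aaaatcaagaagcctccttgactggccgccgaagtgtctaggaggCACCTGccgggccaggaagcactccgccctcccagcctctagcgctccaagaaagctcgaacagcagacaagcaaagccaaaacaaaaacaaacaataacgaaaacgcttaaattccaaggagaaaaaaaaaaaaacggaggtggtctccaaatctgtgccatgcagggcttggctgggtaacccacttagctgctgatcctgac
Cldn7 carries 2 matches, 97 and 57 bases before the start, and the other genes 1 each, at 93 bases for Cldn6, 111 for Krt8 and 205 for Nkx2-1. A match of these letters is a description of the sequence and not a measured binding site.

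The first comparison asked whether the foregut and epithelial transcripts differ between Tbx5-/+ and wild-type pSHF. None of the 11 probes passed an adjusted p of 0.05 in limma, nor did any of the 20031 probes (0% called). At an unadjusted p under 0.05 the count was 0 of 11 as well, while 18.6% of all tested probes were lower and 3.35% higher in Tbx5-/+ at that level. The mutant and wild-type arrays overlapped for all 11 probes, where 9.75% of all probes did not overlap. Of the 9 genes, taken by their brightest tested probe, 7 had a negative difference, with values from -0.86 for Cldn6 to -0.09 for Cdh1, and Krt18 and Cldn7 had positive ones. The signs of Cdh1 and Sox2 turned under 3 other scalings and that of Krt18 under quantile normalization.

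**Figure D1:**
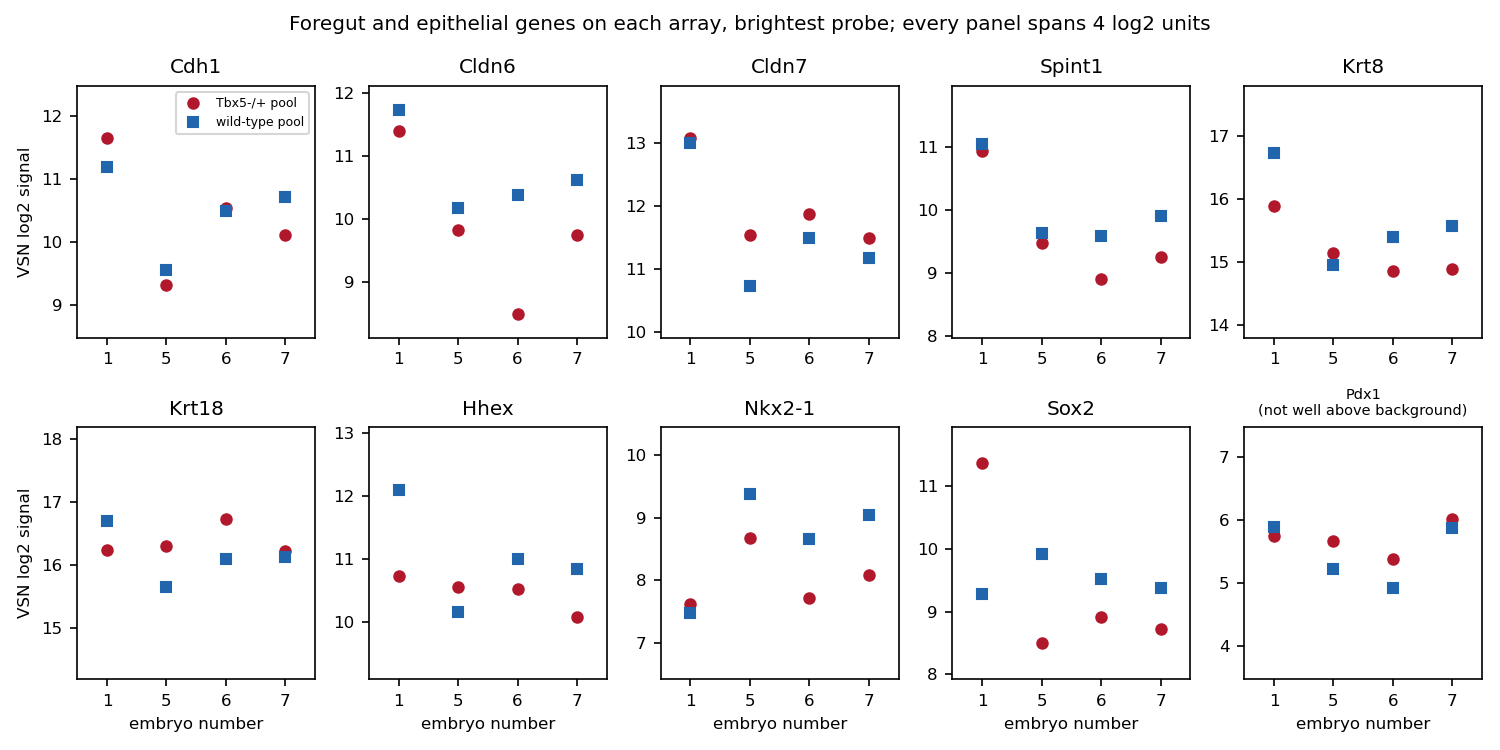
VSN log2 signal (vertical axis) of the brightest probe of each gene in each Tbx5-/+ pool (red circles) and wild-type pool (blue squares), by embryo number (horizontal axis). Cdh1, both claudins, Spint1 and Krt8 are highest in both pools of number 1, Nkx2-1 is lowest there, and red and blue overlap in every panel.

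The members were next compared between embryo numbers. A limma F test of the 4 numbers, with genotype in the model and chosen after the data had been seen, gave an unadjusted p under 0.05 for 7 of the 11 probes, against 23.4% of all probes. After adjustment 1 probe was called, that of Cldn7 (adjusted p = 0.0406 by limma), against 1.53% of all probes, and the call was lost when wild-type number 5 or 7 or any of the 4 Tbx5-/+ arrays was left out. The test takes both genotypes together, and the variation within each was not tested. The other 6 probes had adjusted p values above the threshold in the same limma test, 0.0518 and 0.0715 for Spint1, 0.0669 for Cdh1, 0.0933 for Cldn6, 0.124 for Krt8 and 0.128 for Nkx2-1. The pools numbered 1 held the highest mean of 11 of the 13 probes. Averaged over both genotypes, number 1 exceeded the mean of the other numbers by 1.69 for Cldn6, 1.66 for Cldn7, 1.53 for Spint1, 1.30 for Cdh1 and 1.17 for Krt8 on the log2 scale. Across all tested probes the same difference had a median of -0.02, and it was above 1 in 4.21% of them. The contrast of number 1 with the rest was picked from the values and is given without a test. Numbers 1 and 5 shared a slide. Number 5 held the lowest mean of Cdh1, Cldn7 and Krt8, and number 6, on the other slide, that of Cldn6 and Spint1. The part of the slide in these values was not tested.

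Cldn7, a claudin of columnar epithelia, showed this most clearly (probe at chr11:69780780-69781089, mm9). Its signal was 13.08, 11.55, 11.88 and 11.50 in Tbx5-/+ numbers 1, 5, 6 and 7, and the wild-type pools of the same numbers read 13.01, 10.74, 11.50 and 11.17. Both pools of number 1 stood more than 1 log2 unit above every other pool, whatever the genotype. Within each number the Tbx5-/+ pool was the higher one, by 0.07, 0.81, 0.37 and 0.33. The genotype difference was 0.39 ± 0.51 (SE, n = 4 per group; limma adjusted p = 0.643), and with the embryo number as a block its 95% interval was -0.04 to 0.83 (adjusted p = 0.172).

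Cldn6, a claudin of embryonic epithelia and a marker of early endoderm, had a negative genotype difference (chr17:23819027-23819086, mm9). It read 11.41, 9.83, 8.50 and 9.75 in the Tbx5-/+ pools and 11.73, 10.18, 10.39 and 10.62 in the wild-type pools. Tbx5-/+ number 6 was the lowest, both pools of number 1 were the highest, and without number 1 the genotypes did not overlap. The mean was 9.87 ± 1.19 in Tbx5-/+ and 10.73 ± 0.69 in wild-type (SD, n = 4 each), a difference of -0.86 (95% interval -2.11 to 0.39) that is 1.81-fold lower in Tbx5-/+ and missed the threshold (limma adjusted p = 0.356). The mutant pool was the lower one within each number, by 0.33, 0.35, 1.89 and 0.87. With the number as a block the interval narrowed to -1.50 to -0.21 and the adjusted p was 0.0775. In that fit 2 of the 11 member probes, Cldn6 and Nkx2-1, had an unadjusted p under 0.05 and none was called, while 11.2% of all probes were called.

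Both claudins were highest in number 1, so their signals were also compared within each array, where a scaling of the array cancels. Cldn6 minus Cldn7 was -1.68, -1.72, -3.38 and -1.75 in Tbx5-/+ numbers 1, 5, 6 and 7 and -1.28, -0.56, -1.12 and -0.55 in wild-type. All mutant arrays lay below all wild-type arrays, and the mean of this within-array difference was 1.25 log2 units lower in Tbx5-/+. The exact permutation p was 0.0286 (two-sided), the smallest that 70 assignments of the arrays allow when their embryo numbers are ignored. This comparison was made after the values had been seen and is 1 of 36 pairs of the 9 tested genes. In 6 of the 36 pairs (16.7%) the genotypes did not overlap, against 8.79% of all pairs of tested genes, and adjusted over the 36 pairs the exact permutation p was 0.171 for each of the 6. Cldn7 was in 4 of these pairs, with Hhex, Krt8, Cldn6 and Spint1, each time as the relatively higher gene in Tbx5-/+. The other pairs were Hhex with Krt18 and Cldn6 with Spint1.

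Cdh1, which encodes E-cadherin, had the genotype difference nearest to 0 of the 9 genes with VSN (chr8:109193812-109193871, mm9), while those of Spint1, Krt8 and Sox2 were nearer to 0 with scaling to the 75th percentile and with centring. Its signal was 11.64, 9.31, 10.54 and 10.11 in Tbx5-/+ and 11.19, 9.56, 10.50 and 10.71 in wild-type. The difference was -0.09 ± 0.49 (SE; limma adjusted p = 0.923), with an interval of -1.19 to 1.01 and of -0.58 to 0.40 with the number as a block. Within the numbers it was 0.45, -0.25, 0.04 and -0.61, so neither genotype was the higher one throughout. The interval still allows a change of about 1 log2 unit in either direction. The mean of both pools of a number ran from 9.43 in number 5 to 11.42 in number 1.

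**Figure D2:**
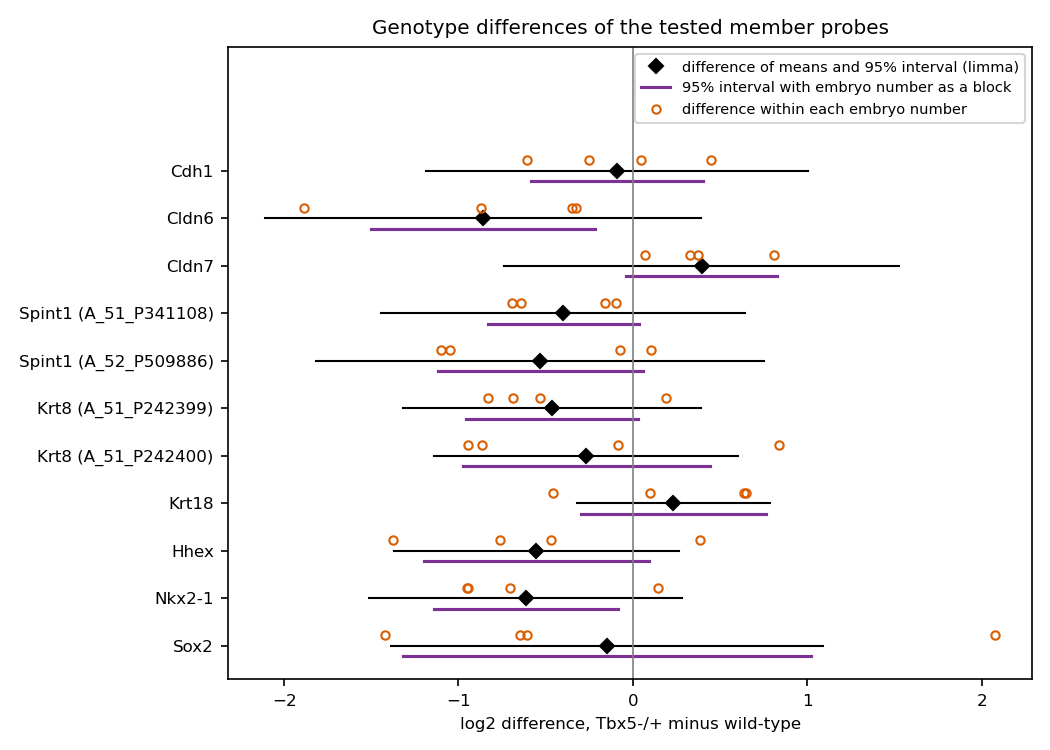
Log2 difference between Tbx5-/+ and wild-type (horizontal axis) of the 11 tested probes (vertical axis), as the difference of means with its 95% interval from limma (black), the 95% interval with the embryo number as a block (purple) and the difference within each of the 4 numbers (orange). All black intervals span 0; with the block those of Cldn6 and Nkx2-1 lie below 0, without passing the adjusted threshold.

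Spint1, the protease inhibitor, was read by a pair of probes. The brighter one (chr2:119074929-119074988, mm9) gave 10.94, 9.47, 8.90 and 9.26 in Tbx5-/+ and 11.04, 9.63, 9.59 and 9.90 in wild-type. Again both pools of number 1 were highest, and within each number the mutant pool was the lower one, by as little as 0.10 for number 1 and as much as 0.69 for number 6. The difference was -0.40 ± 0.47 for this probe and -0.53 ± 0.58 for the other (SE; limma adjusted p = 0.610 and 0.580). The other probe had the same sign except within number 5, where the mutant was higher by 0.11. It was well above background in 3 of 4 mutant pools and entered the test through the wild-type pools, so its direction was favoured by the filter.

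Of the 4 serine proteases tested from the matriptase and hepsin system, St14 and Prss8 had profiles like that of Spint1 across the arrays. St14, which encodes matriptase, read 10.75, 9.18, 8.09 and 8.85 in Tbx5-/+ and 10.63, 9.82, 9.62 and 9.81 in wild-type. Prss8, which encodes prostasin, a protease that acts together with matriptase, read 10.54, 8.53, 7.34 and 8.29 in Tbx5-/+ and 10.63, 8.98, 8.98 and 9.06 in wild-type. In both genes, as in Spint1 and Cldn6, number 1 was highest in both genotypes and Tbx5-/+ number 6 lowest of all. Over the 8 arrays Pearson's r with Spint1 was 0.98 for Prss8 (Spearman's rho 1), 0.94 for St14 (rho 0.95), 0.95 for Cldn6 (rho 0.98) and 0.92 for Krt8 (rho 0.93). Over the 6 arrays of numbers 5, 6 and 7, which leaves out the pair farthest from the median, r was 0.96, 0.96, 0.96 and 0.79. The other proteases were less like Spint1, with an r of 0.35 for Hpn, which encodes hepsin, and 0.43 for Tmprss2, and of -0.32 and 0.31 over those 6 arrays. The correlation of Prss8 exceeded that of 99.9% of the tested probes. These correlations describe the 8 arrays, whose pools share embryo numbers, slides and tissue makeup, and carry no test. Spint2, the sister inhibitor of Spint1, was well above background on only 2 arrays and was not tested.

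**Figure D3:**
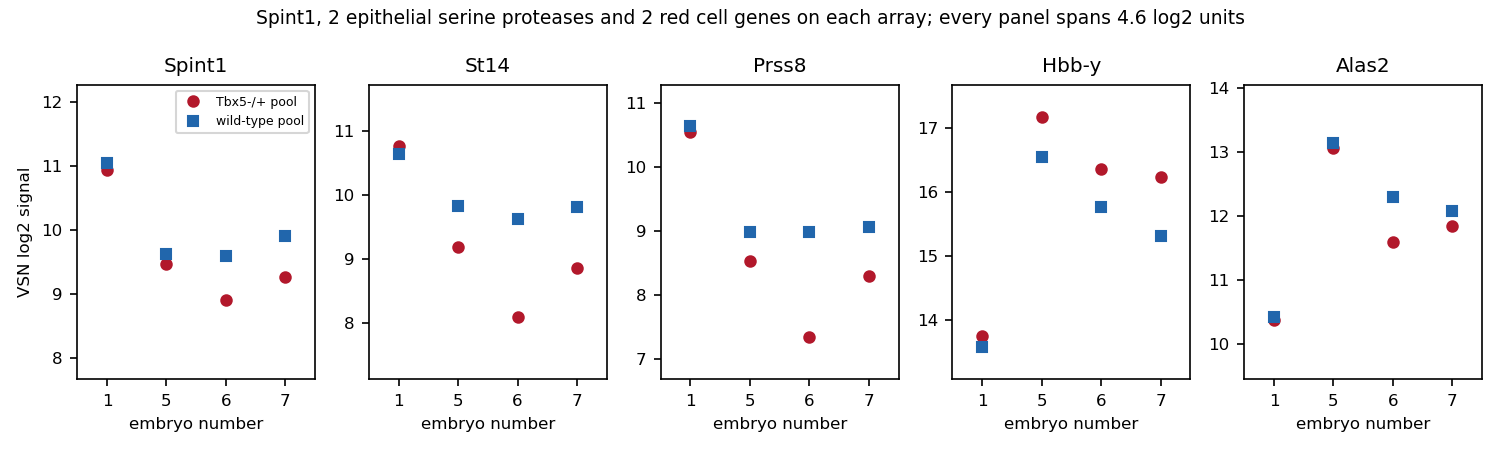
VSN log2 signal (vertical axis) of Spint1, the serine protease genes St14 and Prss8, and the red cell genes Hbb-y and Alas2 in Tbx5-/+ (red circles) and wild-type pools (blue squares), by embryo number (horizontal axis). The first 3 genes are highest and both red cell genes lowest in number 1, in either genotype.

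The keratins 8 and 18 pair with each other to form the filaments of simple epithelia. The brighter Krt8 probe (chr15:101827346-101827405, mm9) read 15.90, 15.15, 14.87 and 14.89 in Tbx5-/+ and 16.73, 14.96, 15.40 and 15.58 in wild-type. Its difference was -0.46 ± 0.38 (SE; limma adjusted p = 0.462), and the other Krt8 probe gave -0.27 ± 0.39 (adjusted p = 0.688). Krt18 (chr15:101862341-101862400, mm9) read 16.24, 16.29, 16.72 and 16.22 in Tbx5-/+ and 16.69, 15.64, 16.08 and 16.12 in wild-type, a difference of 0.23 ± 0.25 (adjusted p = 0.573). The genotypes overlapped for both partners. Krt18 also varied least with the embryo number among the tested members, with number 1 only 0.29 above the others. Heart muscle is another source of these keratins at this age, although by the study's methods the second heart field was separated from cardiac tissue. Cardiomyocyte markers had a mean level of 14.5 to 15.9 in Tbx5-/+ and 15.2 to 15.9 in wild-type over all 8 genes tested. Their part in the keratin values was not tested.

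Among the tested regional transcription factors of the members, Nkx2-1 of the ventral foregut was the exception to the pattern of number 1 (chr12:57633119-57633178, mm9). It read 7.63, 8.67, 7.71 and 8.09 in Tbx5-/+ and 7.49, 9.38, 8.66 and 9.03 in wild-type. Number 1 was the lowest in both genotypes, 1.03 below the mean of the others, where the mean of every epithelial member was highest. In numbers 5, 6 and 7 the mutant pool was the lower one by 0.70, 0.95 and 0.94, and in number 1 it was higher by 0.14. The difference of means was -0.61 ± 0.40 (SE; limma adjusted p = 0.358), and with the number as a block its interval was -1.14 to -0.09 (adjusted p = 0.103). Its correlation with Cdh1 over the 8 arrays was -0.67, and with Cldn7 -0.88.

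Hhex, the factor of the ventral foregut and liver bud, had its tested probe at chr19:37514969-37515028 (mm9). Its signal was 10.73, 10.55, 10.53 and 10.09 in Tbx5-/+ and 12.10, 10.17, 10.999 and 10.85 in wild-type. Wild-type number 1 was highest, and the mutant pools lay within the wild-type range except for number 7. The difference was -0.55 ± 0.37 (SE; limma adjusted p = 0.362). Markers of the liver bud, which also expresses Hhex, had a mean level over 5 of 8 genes tested of 8.67 to 11.6 in Tbx5-/+ and 9.59 to 12.1 in wild-type, and their highest value was on the same array as that of Hhex. Endothelium, another site of Hhex, read 10.8 to 11.4 in Tbx5-/+ and 11.5 to 11.8 in wild-type over 6 markers. The part of either cell type in the Hhex values was not tested.

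Sox2 differed from every other member in the array that stood apart (chr3:34550773-34550832, mm9). It read 11.36, 8.49, 8.92 and 8.72 in Tbx5-/+ and 9.28, 9.92, 9.52 and 9.37 in wild-type. Tbx5-/+ number 1 was by far the highest of all arrays and the other 3 mutant arrays were the lowest. With all 8 arrays the difference was -0.15 ± 0.56 (SE; limma adjusted p = 0.885). Without Tbx5-/+ number 1 it was -0.81 ± 0.21 and was called (limma adjusted p = 0.0334; interval -1.28 to -0.34), with the 3 remaining mutant pools at 8.71 ± 0.21 and the 4 wild-type pools at 9.52 ± 0.28 (SD). In that fit of 7 arrays Sox2 was the 1 member probe called, where 19.2% of all probes were called, and Sox2, Cldn6 and Spint1 had groups that did not overlap, as 37.8% of all probes had. Array weights gave Tbx5-/+ number 1 a weight of 0.17 against up to 5.43 for other arrays. With them Sox2, Nkx2-1, Cldn6 and the dimmer Spint1 probe were called, as were 49.9% of all probes. That Spint1 probe had entered the test through the wild-type pools, and the brighter one was not called (limma adjusted p = 0.0671).

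Markers of the neural tube, another tissue that makes Sox2, were high on the same array in part. Of 8 neural tube markers 4 were tested, and the defining factors Sox1 and Pou3f2 were not well above background on any array. Pax6 read 10.86 in Tbx5-/+ number 1, 8.99 in wild-type number 5 and 6.87 to 8.16 elsewhere. Neurog2 was likewise highest in Tbx5-/+ number 1 at 9.05, whereas Tubb3 and Nkx6-1 were highest in wild-type number 5 at 13.06 and 11.75. Sox2 itself was second highest in wild-type number 5. The mean level of the 4 markers was 8.91 to 10.1 in Tbx5-/+ and 8.39 to 10.5 in wild-type, and their part in the Sox2 values was not tested.

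**Figure D4:**
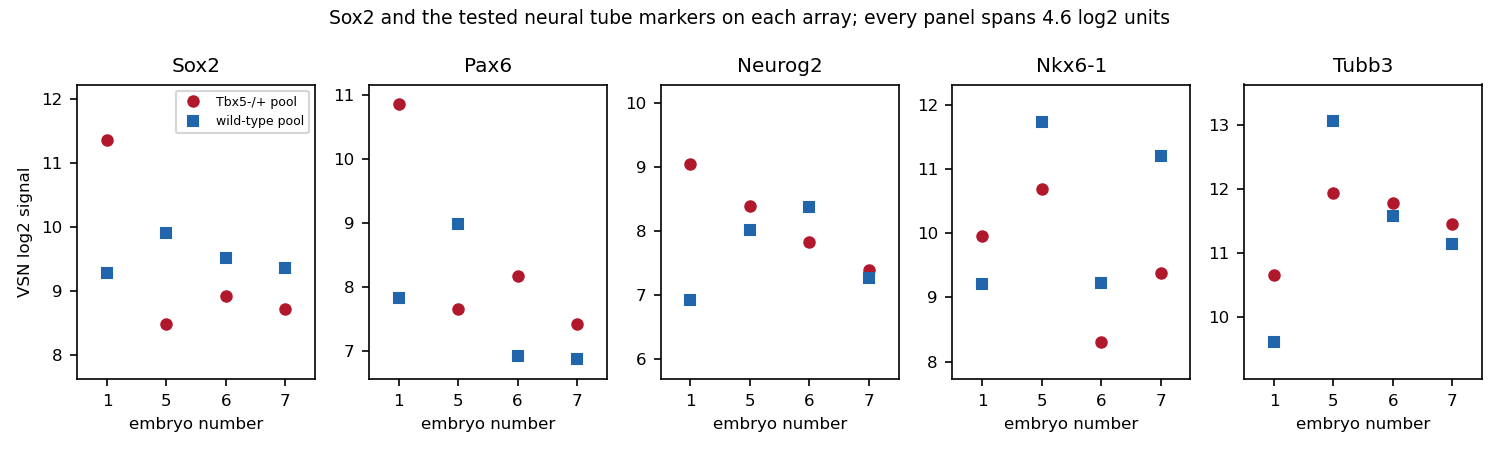
VSN log2 signal (vertical axis) of Sox2 and of the 4 tested neural tube markers in Tbx5-/+ (red circles) and wild-type pools (blue squares), by embryo number (horizontal axis). Sox2, Pax6 and Neurog2 are highest in Tbx5-/+ number 1, where Sox2 reads 11.36 and Pax6 10.86, and the other 3 mutant pools have the lowest Sox2 values.

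The members did not form a single profile over the arrays. Relative to Cdh1, Pearson's r over the 8 arrays was 0.79 for Cldn7, 0.70 for Spint1 and Krt8, 0.61 for Sox2, 0.57 for Hhex and Cldn6, 0.44 for Krt18 and -0.67 for Nkx2-1. The median r of all tested probes with Cdh1 was -0.09. Without the arrays of number 1 the values were 0.54 for Hhex, 0.40 for Krt8, 0.37 for Krt18, 0.32 for Cldn7, 0.18 for Sox2, -0.02 for Spint1, -0.04 for Cldn6 and -0.33 for Nkx2-1. The likeness of Spint1 and Cldn6 to Cdh1 rested on those arrays, whereas that of Hhex and Krt18 changed little. The genes outside the group most like Cdh1 were Thg1l (r = 0.97), Aldoc (0.96), Klf15 (0.96), 1810019J16Rik (0.95) and Prtg (0.95). Prtg, which encodes a transmembrane protein of early embryonic tissue, spanned 13.7 to 16.0 and was highest in both pools of number 1. The remaining 4 showed smaller spans and kept an r of 0.90 to 0.96 without number 1.

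Red cell genes ran opposite to the epithelial members. All 5 tested markers of primitive erythrocytes were lower in number 1 than in the mean of the other numbers, with a median of -1.81 on the log2 scale. All 5 had an unadjusted p under 0.05 for the embryo number in limma, against 23.4% of all probes. The embryonic globin Hbb-y read 13.75 and 13.59 in the Tbx5-/+ and wild-type pools of number 1 and 15.3 to 17.2 in the other pools. Alas2, the enzyme that starts heme synthesis in red cells, read 10.37 and 10.42 in number 1 and 11.6 to 13.1 elsewhere. Number 5, in which Cdh1 was lowest, had the highest Hba-x values, 17.4 and 16.9. The mean level of the red cell list was 12.9 to 15.5 in Tbx5-/+ and 13.0 to 15.2 in wild-type, with the lowest values on both arrays of number 1, and its part in the values of the epithelial genes was not tested.

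**Figure D5:**
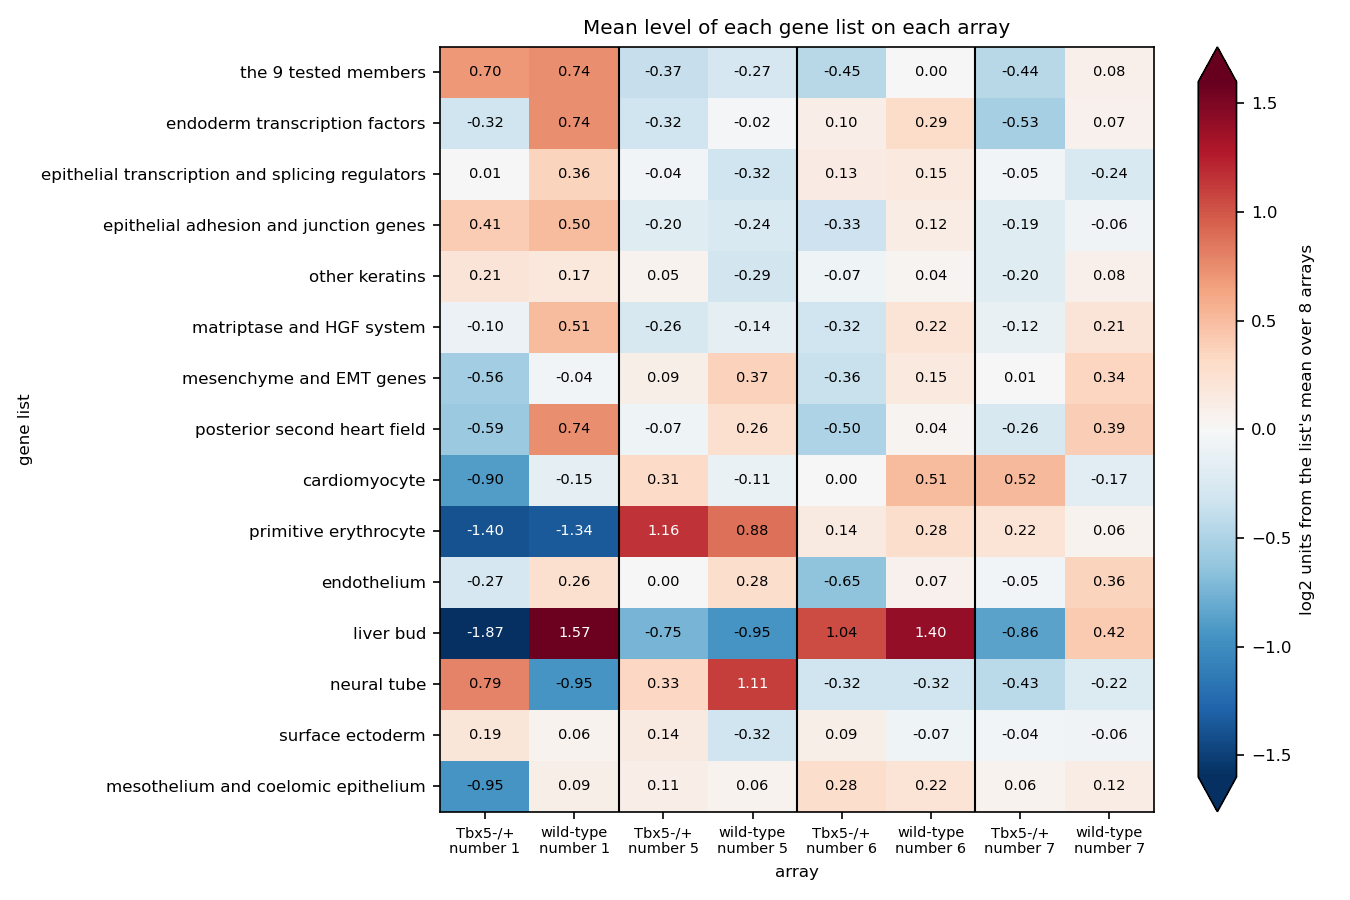
Mean log2 level of the 9 tested members and of each gene list (vertical axis) on each of the 8 arrays (horizontal axis, paired by embryo number), given as the deviation from the mean of that list over the 8 arrays. The members stand at 0.70 and 0.74 in the pools of number 1, where the primitive erythrocyte list stands at -1.40 and -1.34.

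The wider epithelial and endodermal program was read from 6 lists chosen with earlier results of these data known. By brightest probes, 15.5% of all genes were lower and 4.07% higher in Tbx5-/+ at an unadjusted p under 0.05. No gene of any list was called without a block. With the embryo number as a block, 11.2% of all tested probes were called. The median difference of all genes was -0.13. That median was 0.18 with scaling to the 75th percentile, 0.02 with quantile normalization and 0.19 with centring, and the medians of the lists are given below under the same 3 settings. Of the 13 endoderm transcription factors tested, 3 were lower at that level and none higher, with a median difference of -0.40 (-0.40, -0.15 and -0.08 under the other settings). Prox1, a factor of liver and pancreas progenitors, read 8.38 ± 0.38 in Tbx5-/+ and 9.54 ± 0.10 in wild-type, a difference of -1.16 (limma adjusted p = 0.0918, and 0.0334 with the number as a block). Gata6, which acts in endoderm and in cardiac mesoderm, differed by -1.17 (adjusted p = 0.110, and 0.0354 with the block), and Sox17, a factor of definitive endoderm that endothelium also makes, by -1.01 (adjusted p = 0.172, and 0.0452 with the block). In all 3 genes the mutant arrays lay below the wild-type arrays without overlap. The other 10, among them the pioneer factor genes Foxa1 and Foxa2 and the hepatic factor gene Hnf4a, had an unadjusted p above 0.05. Between numbers, 11 of the 13 were higher in number 1 than in the others, with a median of 0.29. Foxa1 and Foxa2 went the other way, with differences of -0.70 and -0.73.

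Of 8 tested regulators of the epithelial state, Klf5 (-0.89; limma adjusted p = 0.161, and 0.0365 with the block) and the splicing factor gene Esrp2 (-0.47; adjusted p = 0.220) were lower and Grhl2 was higher at an unadjusted p under 0.05. Grhl2, a grainyhead-like factor that maintains epithelial junctions and activates Cdh1, read 12.47 ± 0.71 in Tbx5-/+ and 11.41 ± 0.36 in wild-type, with no overlap (difference 1.07; adjusted p = 0.170, and 0.0400 with the block). Klf5 was well above background in 3 of 4 mutant pools and entered the test through the wild-type pools. The list's median difference was 0.03 (0.37, 0.23 and 0.35 under the other settings). Between numbers, 4 of the 8 were higher in number 1 than in the others, with a median of 0.05. The largest of these values were those of Esrp1 and Ovol2, 1.21 and 1.16, neither of which passed for the embryo number (limma adjusted p = 0.0850 and 0.0910).

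Of 23 tested adhesion and junction genes, 2 were lower and none higher in Tbx5-/+ at the unadjusted level. Between numbers, 21 were higher in number 1 than in the others. The median of that difference was 0.53, against -0.02 over all tested probes. Dsp, the desmosome protein desmoplakin, differed by -0.81 without overlap (limma adjusted p = 0.149) and its partner Jup, plakoglobin, by -0.96 (adjusted p = 0.191, and 0.0361 with the block). Dsp is also abundant in heart muscle. Epcam, an epithelial surface marker, read 12.04, 11.24, 11.23 and 11.48 in Tbx5-/+ and 11.74, 10.54, 11.35 and 10.78 in wild-type, which overlapped. The median difference of the list was -0.20 (0.0006, 0.02 and 0.12 under the other settings).

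Neither the other keratins nor the matriptase and HGF system held a gene at an unadjusted p under 0.05 for genotype, with 8 and 7 tested by their brightest probes. A second Tmprss2 probe was lower at that level (-1.10; limma adjusted p = 0.205, and 0.0483 with the block). The median difference was -0.03 for the keratins (0.29, 0.09 and 0.29 under the other settings) and -0.43 for the protease system (-0.37, -0.17 and -0.11). Higher in number 1 were 6 of the 8 keratins and 4 of the 7 protease system genes, with medians of 0.24 and 0.39. The smallest p among the keratins belonged to Krt20 (-0.35; limma adjusted p = 0.473), Krt5 (0.19; 0.633) and Krt23 (0.22; 0.726), and in the protease system to Hgfac (-0.43; 0.358), St14 (-0.75; 0.363) and Prss8 (-0.74; 0.481). Hgf, the mesenchymal ligand whose activation Spint1 limits, differed between number 1 and the mean of the others by -2.28, opposite to Spint1, with an adjusted p of 0.0183 for the embryo number in limma.

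All 14 mesenchyme genes were tested, and 3 were lower and none higher at the unadjusted level, with a median difference of -0.34 (-0.0008, -0.24 and -0.02 under the other settings). Prrx1, a limb and body wall mesenchyme factor, differed by -1.65 by its brightest probe (limma adjusted p = 0.119, and 0.0467 with the block). The 4 tested Prrx1 probes ranged from -1.65 to -0.05. Fibronectin (Fn1) differed by -1.05 (adjusted p = 0.186, and 0.0447 with the block) and Twist1 by -0.72 (adjusted p = 0.195, and 0.0398 with the block). Between numbers, 10 of the 14 were lower in number 1, with a median of -0.53. Markers of the surface ectoderm, the other epithelium near the cut, had a mean level of 8.49 to 8.71 in Tbx5-/+ and 8.21 to 8.59 in wild-type over 7 genes, and those of the mesothelium 9.21 to 10.4 and 10.2 to 10.4 over 7 genes.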

How the data were processed

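RNA of 4 Tbx5-/+ and 4 wild-type pSHF pools was measured on one-colour Agilent arrays. The deposited scanner files hold intensity values from Agilent Feature Extraction 10.5.1.1 (per the submitters' processing notes) together with other columns of quality marks, and probe coordinates on mm9. The deposited log2 value table was background-corrected and VSN-normalized by the authors. Here, VSN was programmed in R 4.3.3 and applied to mean signal minus median local background, after leaving out spots marked as outliers and averaging repeated spots. It matched the deposited table on every array (r of at least 0.9999 across 22405 probes). Limma 3.58.1 (lmFit, eBayes; genotype as the single term, two-sided tests, Benjamini-Hochberg over all probes tested, threshold 0.05) compared genotypes, with exact permutation over 70 assignments for single values. Scripts were tested on simulated data.

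The same embryo number paired the pools: deviations from the genotype means correlated at 0.44, 0.40, 0.59 and 0.14 for numbers 1, 5, 6 and 7, all above 0.1, and at -0.60 to 0.37 for unlike numbers; Tbx5-/+ number 7 correlated more with wild-type number 6 (0.37) than with its own. Nothing says that pools came from separate litters, so p-values measure the spread between these pools, and the number of arrays limits precision. The members and gene lists were chosen with earlier results of these data known. Named genes are all members and the 5 genes most correlated with Cdh1. From each pathway list the genes with the smallest p are named (3 each, none being called). Epcam, Esrp1, Ovol2, Hgf, Foxa1, Foxa2 and single marker genes were named after their values were seen. A gene that this rule picks is not reported here. Symbols in the files were used, and Esrp1 is listed there under an older name. The alternatives were other normalizations, centring, filters on dim probes, SAM, array weights, blocks, single arrays left out and probe averages.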

Additional observations from a re-analysis of the deposited data

Results flagged for a closer look

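In 26 groups of 4 arrays (13 probes in each genotype), 3 arrays stood apart from the other 3 of their genotype by more than Dixon's 95% limit, which chance does in about 1 group in 20. Sox2 in Tbx5-/+ number 1 read 11.36, above 8.49 to 8.92 in the other mutant pools. The dim Hhex probe that was not tested read 7.63 in wild-type number 1, above 6.05 to 6.29. Krt18 in Tbx5-/+ number 6 read 16.72, above 16.22 to 16.29.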

How the results depend on the processing

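Of the 9 tested genes, Cldn7, Spint1, Krt8, Hhex, Cldn6 and Nkx2-1 kept the sign of their difference under every alternative run. Cdh1 turned to 0.27 with scaling to the 75th percentile, 0.21 with quantile normalization, 0.23 with centring and 0.10 within array label 1, and Sox2 to 0.17, 0.21, 0.17 and 0.33 under the same settings. Krt18 turned to -0.0344 with quantile normalization. Leaving out 1 array at a time gave -0.51 to 0.27 for Cdh1 and -0.81 to 0.14 for Sox2. Array weights gave calls for Cldn6 (-0.79), Nkx2-1 (-0.83) and Sox2 (-0.75), and leaving out both pools of number 1, chosen after seeing the data, one for Sox2 (-0.89). The causes were not tested.

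Over all probes, the genotype called 185 probes under the study's filter, 396 with SAM on it, 10002 with array weights, 2246 with the replicate block, 3151 without number 1 and 0 to 3836 with 1 array left out, the highest without Tbx5-/+ number 1 and 211 without wild-type number 1. Called member probes numbered 4 with array weights, 1 without number 1 and 0 to 1 with 1 array left out. At an unadjusted p under 0.05 they were 5 with array weights, 2 with the replicate block, 4 without number 1 and 0 to 4 with 1 array left out. Groups of 4 member probes did not overlap without number 1, and those of 0 to 3 with 1 array left out. The replicate block changed no other call of a member. Among probes with an unadjusted p below 0.05, the share lower in Tbx5-/+ was 84.7% with VSN, 35.6% with scaling to the 75th percentile, 50.2% with quantile normalization and 29.0% with centring.

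The embryo number called 1 member probe in the fit reported, 2 with centring, with probes well above background on all 8 arrays and under the study's filter, 0 without a filter, with array weights and without number 1, and 0 to 5 with 1 array left out (0 without Tbx5-/+ 1, 5, 6 or 7 or wild-type 5 or 7, 2 without wild-type 6 and 5 without wild-type 1). Over all probes it called 307, and 190 with quantile normalization, 179 without a filter, 61 with array weights, 0 without number 1 and 0 to 2768 with 1 array left out, lowest without number 5 of either genotype. Member probes at an unadjusted p under 0.05 numbered 7, 6 to 8 with 1 array left out and 2 without number 1. The median correlation of the members with Cdh1 was 0.59, and 0.25 without number 1. With 4 arrays a group the 95% intervals were wide, from -2.11 to 0.39 for Cldn6 and from -0.32 to 0.78 for Krt18, and the genotype differences that could be detected were limited accordingly.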
